A study of Homo sapiens with 42 samples.

Results

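The genes described here are 34 genes of distal chromosome 12p, the telomeric end of the short arm of human chromosome 12, measured as messenger RNA in the myeloma line RPMI-8226. They were selected on measured values, the difference in signal between the study's cell lines. That difference is therefore described here, and nothing is read from a test of it. Each gene was read from its brightest probe set by mean signal among those annotated to that gene alone. Such a probe set was found for 33 of the 34 genes, of 19775 genes on the array, and NTF3 had none in the annotation used. RefSeq (GRCh38.p14) placed all 34 on chromosome 12, with SLC6A12 nearest the telomere and NTF3 farthest from it. CCND2, FOXM1 and NDUFA9 lie among them but are not in the list, and their values are given as those of neighbours.

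The genes of a chromosome arm share no common function, and neighbours on this stretch range from a histone demethylase to potassium channels and growth factors. When a segment of a chromosome is gained or lost, the transcripts of the expressed genes on it tend to shift together, whatever their roles, while silent genes stay silent. Plasma cell tumours and the lines grown from them commonly carry such gains and losses, and sublines of one cell line can come to differ in them.

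RPMI-8226 is a long-established human line grown from a plasma cell tumour. The cells had been stably infected to carry a doxycycline-inducible shRNA, either against BMI1, a subunit of a Polycomb complex that silences genes, or a control, and each hairpin was carried by a single derivative line. Both lines were profiled on Affymetrix U133 Plus 2 arrays at 24, 32 and 48 h without doxycycline and at the same times with 100 ng/ml of it, in groups of 3 arrays. At 0 h there were 3 arrays of each line, giving 42 arrays in 14 groups. For the BMI1-shRNA line the labels at 0 h conflict, no doxycycline in the title but doxycycline and the control line in other fields, so these arrays entered no tested comparison. They are in the shared estimate of the spread and in the values described for 0 h. BMI1 signal on them was 1032 ± 32.4 (SD, n = 3), close to the 1021 ± 125 (SD, n = 3) of the undosed BMI1-shRNA line at 48 h and above the 159 ± 25.6 (SD, n = 3) of the dosed one. On the 0 h arrays of the control-shRNA line it was 1259 ± 41.5 (SD, n = 3). The labels do not say that replicates were separate cultures, so the tests weigh differences against the spread between arrays, which may be technical.

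Median probe set signal ran from 16 to 22.5 over the arrays of the control-shRNA line and from 16 to 21.9 over those of the BMI1-shRNA line, and the number of arrays limits the precision. RNA quality, read as the 3-prime over the 5-prime signal of GAPDH, gave a ratio of 1.03 ± 0.0401 for the control-shRNA arrays and 0.935 ± 0.0251 for the BMI1-shRNA arrays (SD over 21 arrays each). GAPDH itself lies on 12p, and the same ratio for ACTB was 1.18 ± 0.0303 and 1.16 ± 0.0319. Of 9 plasma cell markers, 8 read at or above the array median on all 42 arrays and SLAMF7 on none, with summed signals of 12682 to 16028 in the control-shRNA line and 12578 to 15481 in the BMI1-shRNA line. Of 5 monocyte markers and 4 T cell markers none did so on all arrays. Of 5 epithelial markers 4 did, with summed signals of 4014 to 5588 in the control-shRNA line and 5281 to 6586 in the BMI1-shRNA line. So did 1 of 5 fibroblast markers, COL1A1, and 1 of 2 measured erythroid markers, HBB. Single markers could differ more than the sums. Means in the control-shRNA and BMI1-shRNA lines were 45.3 and 376.6 for CDH1 and 242 and 509 for CD38, while MZB1 was lower in the latter, at 5106 and 4496. The part of RNA quality or of the epithelial genes in the values below was not tested. In bulk RNA, fewer cells expressing a gene and less RNA per cell cannot be told apart.

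Of the 33 genes with a probe set, 15 reached the median signal of the array or more on all 42 arrays. They are KDM5A, CCDC77, WNK1, ERC1, FBXL14, ADIPOR2, DCP1B, FKBP4, ITFG2, TULP3, TEAD4, TSPAN9, PARP11, RAD51AP1 and DYRK4, and are called the brighter genes here. The other 18 fell below it on some array. A total of 26 genes, the 15 brighter ones and 11 others, reached the median on at least 3 arrays and entered the tests, and 7 with a probe set did not. Mean signals over all arrays, in linear MAS5 units, were 57.4 to 1540 for the brighter genes and 2.64 to 50.2 for the others. Signal depends on the probe set as well as on the transcript, so signals of different genes are not compared as levels.

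Without doxycycline 14 of the 15 brighter genes were higher in the BMI1-shRNA line, by 0.26 to 1.17 on the log2 scale, and TSPAN9 was lower. The median difference between the lines, averaged over 24, 32 and 48 h, was 0.87 on the log2 scale over these 15 genes, against -0.01 over the 9772 genes of the series that were equally bright. Of the equally bright genes 48.9% were above 0. It was 0.5 or more for 11 of the 15, against 7.57% of the equally bright genes. Log2 values here are of the signal plus a pseudocount of 5.4, which understates the differences of dim genes. The list was drawn up on this difference, so these values are a description and nothing is read from a test of it.

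Among the genes of chromatin and transcription, KDM5A, a demethylase of histone H3 lysine residues, read 189.8 to 252.0 on the 9 undosed arrays of the control-shRNA line, with a median of 212.3. On the 9 undosed arrays of the BMI1-shRNA line it read 356.0 to 446.4, with a median of 415.1. The arrays of the lines did not overlap, and the ratio of the mean signals was 1.90. TEAD4, a DNA-binding partner of the Hippo pathway's YAP, read 256.4 to 314.2 (median 278.5) against 480.6 to 587.5 (median 519.9), again without overlap, a log2 difference of 0.89 ± 0.04 (SE). TULP3, a tubby-like protein that carries receptors into the primary cilium, read 109.4 to 137.8 (median 118.6) in the control-shRNA line. In the BMI1-shRNA line its 9 arrays ran from 213.4 to 258.3 (median 237.4). The difference was 0.94 ± 0.06 (SE) for TULP3 and 0.91 ± 0.05 (SE) for KDM5A, so these 3 genes lay within the replicate error of one another. The dim genes of this group were not higher, with PRMT8 at -0.20 ± 0.26 (SE) and NRIP2 at -0.08 ± 0.24 (SE).

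The genes of DNA repair and ADP-ribosylation were all higher in the BMI1-shRNA line. RAD51AP1, a DNA-binding protein of homologous recombination, had the smallest error of the list. Its undosed arrays ran from 720.0 to 847.6 (median 820.3) in the control-shRNA line and from 1220 to 1670 (median 1494) in the BMI1-shRNA line, with no overlap and a log2 difference of 0.87 ± 0.04 (SE). PARP11, a mono-ADP-ribosyltransferase, read 38.8 to 100.1 (median 69.4) against 88.8 to 145.7 (median 115.6). Its arrays overlapped, and its difference of 0.68 ± 0.16 (SE) was less precise than that of the other brighter genes except ITFG2. RAD52, a strand-annealing recombination protein, was dim and read 1.6 to 24.3 (median 19.7) in the control-shRNA line. It read 46.8 to 62.4 (median 51.5) in the BMI1-shRNA line, well apart, with a difference of 1.48 ± 0.17 (SE). Its other probe sets gave 1.24 ± 0.14, 0.67 ± 0.25 and 0.08 ± 0.28 (SE each).

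Of the genes of protein folding, protein turnover and RNA decay, all 3 were bright and none overlapped between the lines. Among equally bright genes 11.1% lay apart with the BMI1-shRNA line higher. FKBP4, a co-chaperone of HSP90 in steroid receptor complexes, read 745.7 to 1186 (median 1036) in the control-shRNA line and 1723 to 2279 (median 2032) in the BMI1-shRNA line, a difference of 1.05 ± 0.05 (SE). DCP1B, a cofactor of the mRNA decapping enzyme, read 73.6 to 89.1 (median 83.8) against 176.1 to 213.9 (median 187.5). Its log2 difference of 1.17 ± 0.06 (SE), a ratio of mean signals of 2.34, was the highest among the 15 brighter genes. FBXL14, an F-box subunit of a ubiquitin ligase, read 272.9 to 348.9 (median 321.3) against 523.8 to 582.9 (median 539.4), a difference of 0.79 ± 0.05 (SE).

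On their brightest probe sets the 2 kinases of the stretch differed less between the lines. WNK1, which regulates ion cotransporters and cell volume, read 353.9 to 459.3 (median 401.1) in the control-shRNA line and 437.9 to 624.7 (median 543.1) in the BMI1-shRNA line. These arrays overlapped at their edges, and the difference was 0.42 ± 0.07 (SE). Its other probe sets on all 42 arrays gave 0.56 ± 0.05 and 0.56 ± 0.11 (SE each), so the size for WNK1 depended on the probe set. DYRK4, a dual-specificity kinase, read 96.9 to 116.8 (median 103.7) against 109.9 to 139.4 (median 131.5). It overlapped too, with a difference of 0.26 ± 0.07 (SE), the smallest among the 14 brighter genes above 0.

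The membrane, adhesion and scaffold genes held both the common pattern and its exception. ADIPOR2, a receptor for the fat-cell hormone adiponectin, read 367.3 to 443.3 (median 418.9) in the control-shRNA line and 671.6 to 833.8 (median 770.3) in the BMI1-shRNA line. Its arrays did not overlap, and the difference was 0.90 ± 0.05 (SE). CCDC77, a coiled-coil protein, read 55.3 to 77.2 (median 72.7) against 114.3 to 148.4 (median 129.6), a difference of 0.86 ± 0.08 (SE), without overlap. ITFG2, a subunit of the KICSTOR complex that restrains mTORC1 when nutrients are short, read 59.1 to 97.8 (median 82.2) against 103.5 to 214.0 (median 167.1). That gave 0.94 ± 0.18 (SE) with no overlap, but with the widest error of the brighter genes. With its retained probe sets averaged ITFG2 gave 0.61, and its dimmest probe set gave 0.17 ± 0.14 (SE). ERC1, a scaffold of the cell cortex and of NF-kB signalling, read 109.9 to 179.4 (median 127.5) against 167.8 to 221.5 (median 183.6), which overlapped, a difference of 0.49 ± 0.06 (SE).

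TSPAN9, a tetraspanin of the plasma membrane, went the other way. It read 56.8 to 75 (median 66.6) in the control-shRNA line and 32.1 to 58.4 (median 45.8) in the BMI1-shRNA line. The arrays overlapped slightly, and the difference was -0.48 ± 0.11 (SE). The other TSPAN9 probe set, at or above the array median on 16 arrays, gave 0.04 ± 0.27 (SE), and the mean of both gave -0.22.

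**Figure D1:**
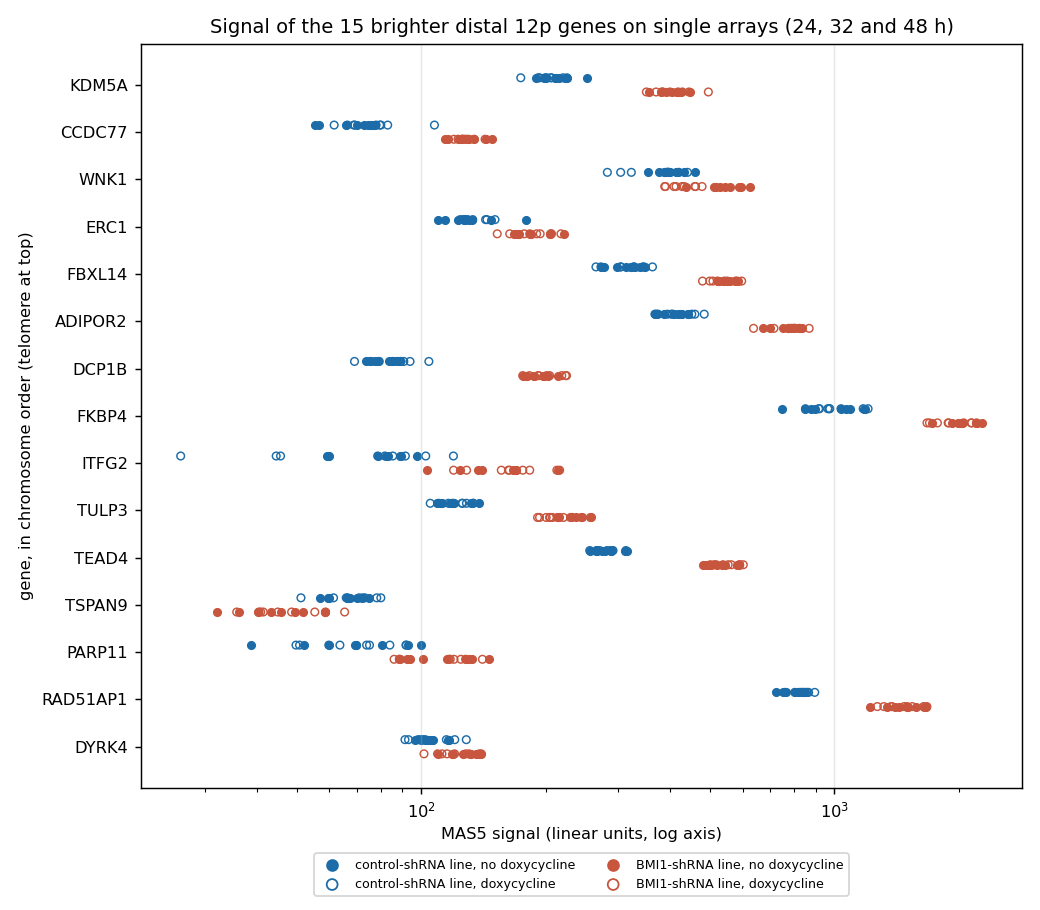
Signal of the 15 brighter genes on each array at 24, 32 and 48 h (linear MAS5 units on a log axis), in chromosome order with the telomere at the top, for the control-shRNA line (blue) and the BMI1-shRNA line (red), without (filled) and with (open) doxycycline. Every gene but TSPAN9 is shifted to higher signal in the BMI1-shRNA line, with 10 of the 15 free of overlap on the undosed arrays.

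Without doxycycline the 9 arrays of the BMI1-shRNA line all lay above the 9 of the control-shRNA line for 10 of the 15 brighter genes, against 11.1% of equally bright genes. With doxycycline this held for 11 of the 15, against 11.9%. For 0 of the 15 did all 9 undosed arrays of the BMI1-shRNA line lie below, against 9.48%. Over the 26 genes tested, the undosed arrays lay apart with the BMI1-shRNA line higher for 12, against 8.59% of all genes tested, and with it lower for 0, against 7.56%. With limma, 17 of the 26 passed an adjusted p of 0.05 in this difference, 16 higher and 1 lower, where 43.9% of all 14704 genes did, 21.9% higher and 22.1% lower. Because the difference was the reason for listing the genes, all these counts depend on the selection. The limma calls are given as a description beside those of all genes and not as a test. Nothing is read from any of these counts.

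Other bright probe sets of the same genes gave the same direction. The 33 genes had 75 probe sets in all, of which 27 read at or above the array median on all 42 arrays. The undosed difference was above 0 for 26 of these 27, against 47.2% of all equally bright probe sets, and TSPAN9 supplied the one below. The 12 that were not their gene's brightest were all above 0, at 0.30 to 1.05. They were read on the same undosed arrays on which the list was drawn up, so they are not independent of the selection. For KDM5A the brightest probe set gave 0.91 ± 0.05 (SE) and the next gave 0.51 ± 0.16 (SE), so the size depended on the probe set while the direction did not. The second probe set of FKBP4 gave 1.05 ± 0.07 (SE), the same as its brightest, and those of TULP3 gave 0.94 each.

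The 18 dimmer genes had smaller and less certain differences, WNT5B and RAD52 apart. They were SLC6A12, SLC6A13, B4GALNT3, NINJ2, RAD52, WNT5B, CACNA2D4, LRTM2, CACNA1C, NRIP2, PRMT8, FGF23, FGF6, AKAP3, GALNT8, KCNA6, KCNA1 and KCNA5. Their median difference was 0.11, from -0.38 for KCNA6 to 1.81 for WNT5B, and 14 of the 18 were above 0. Over all genes below the array median on some array the median was 0.04, with 56.1% above 0. Over all 33 genes the median was 0.42 with 28 above 0, against 0.02 and 52.5% over all genes with a probe set. Standard errors were 0.13 to 0.29 for the dimmer genes and 0.04 to 0.18 for the brighter ones.

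WNT5B, a secreted Wnt ligand, had the largest difference of the list on its brightest probe set. It read 9.8 to 47.0 (median 20.2) in the control-shRNA line and 60.6 to 103.9 (median 80.7) in the BMI1-shRNA line, without overlap, a difference of 1.81 ± 0.20 (SE). The other WNT5B probe sets gave 1.02 ± 0.22 (SE) and 0.11 ± 0.27 (SE), so the size and the rank rest on the probe set chosen. With RAD52 it was 1 of the 2 dimmer genes whose undosed arrays lay apart, and these were also the 2 whose difference was above 0 in every condition. Next came KCNA1, a voltage-gated potassium channel, at 0.50 ± 0.28 (SE), and SLC6A12, a betaine and GABA transporter, at 0.43 ± 0.26 (SE). Each reached the array median on 1 array and did not hold its size with doxycycline, where KCNA1 gave 0.23 and SLC6A12 gave -0.14. The 5 ion channel genes, the 2 transporters and the 2 glycosyltransferases had no member whose undosed arrays lay apart. Among all genes tested 8.59% lay apart with the BMI1-shRNA line higher. No share of either kind was counted for equally dim genes, so nothing is read from these counts.

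Sequences upstream of transcription start sites are shown for 3 genes on which the results turn. DCP1B had the highest difference of the brighter genes, RAD51AP1 the most precise one, and WNK1 was the gene called for doxycycline in the BMI1-shRNA line. That call was made on its brightest probe set and was lost with probe sets averaged. Each run is the 250 bases before the start, 5′ to 3′ on the gene's own strand, from RefSeq (GRCh38.p14), with GGGCGG in capitals, the core of the GC box that binds SP-family factors. The DCP1B stretch is chr12:2004458-2004707 on the minus strand and lies within the span of CACNA1C, the RAD51AP1 stretch is chr12:4538640-4538889 on the plus strand and the WNK1 stretch is chr12:752329-752578 on the plus strand.
DCP1B: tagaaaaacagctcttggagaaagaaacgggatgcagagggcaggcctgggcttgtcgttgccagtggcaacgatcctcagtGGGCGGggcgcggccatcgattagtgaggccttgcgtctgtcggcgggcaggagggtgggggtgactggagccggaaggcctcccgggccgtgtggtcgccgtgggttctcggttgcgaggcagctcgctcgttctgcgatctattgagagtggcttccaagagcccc
RAD51AP1: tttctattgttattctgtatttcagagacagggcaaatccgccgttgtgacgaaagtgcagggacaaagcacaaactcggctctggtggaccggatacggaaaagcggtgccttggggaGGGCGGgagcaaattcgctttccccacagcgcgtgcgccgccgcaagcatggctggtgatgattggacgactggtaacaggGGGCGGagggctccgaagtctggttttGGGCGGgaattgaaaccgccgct
WNK1: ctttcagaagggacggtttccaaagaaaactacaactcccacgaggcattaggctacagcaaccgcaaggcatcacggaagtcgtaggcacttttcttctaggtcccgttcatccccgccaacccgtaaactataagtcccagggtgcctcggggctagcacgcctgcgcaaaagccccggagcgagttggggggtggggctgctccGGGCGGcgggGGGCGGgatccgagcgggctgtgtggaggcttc

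The printed stretches held 1, 3 and 2 GGGCGG for DCP1B, RAD51AP1 and WNK1 and no TATAAA, and their GC content was 63.6%, 57.2% and 61.6%. Promoter windows of 250 bases before to 50 after the start were matched for 23 of the 34 genes, 35 windows in all. Only the 250 bases before the start were searched. On either strand GGGCGG was in 17 of the 35, against 42.64% of 35116 windows of all genes. It was in 11 of the 18 windows of brighter genes and in 6 of the 17 windows of the others. CCAAT was in 10 of the 35 against 32.01%, and TATAAA in 4 of the 35 against 10.72%. A match is a string of letters in a window and not a measured binding site.

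The difference between the lines was much the same in every condition. Over the brighter genes its median was 0.82 at 24 h, 0.86 at 32 h and 0.82 at 48 h without doxycycline, and 0.81, 0.79 and 0.71 at these times with it. At 0 h, with the conflicting labels, it was 0.85. The difference was above 0 in all 7 conditions for 13 of the 15 genes, against 26.3% of equally bright genes. TSPAN9 was below 0 in all 7, as were 24.9% of equally bright genes, and DYRK4 was above 0 in all but the 0 h arrays, where it gave -0.06 ± 0.12 (SE). Within a gene the 7 values spanned 0.19 to 0.48, with a median span of 0.32. Dosed and undosed values come from different arrays, but they share the lines from which the list was drawn.

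**Figure D2:**
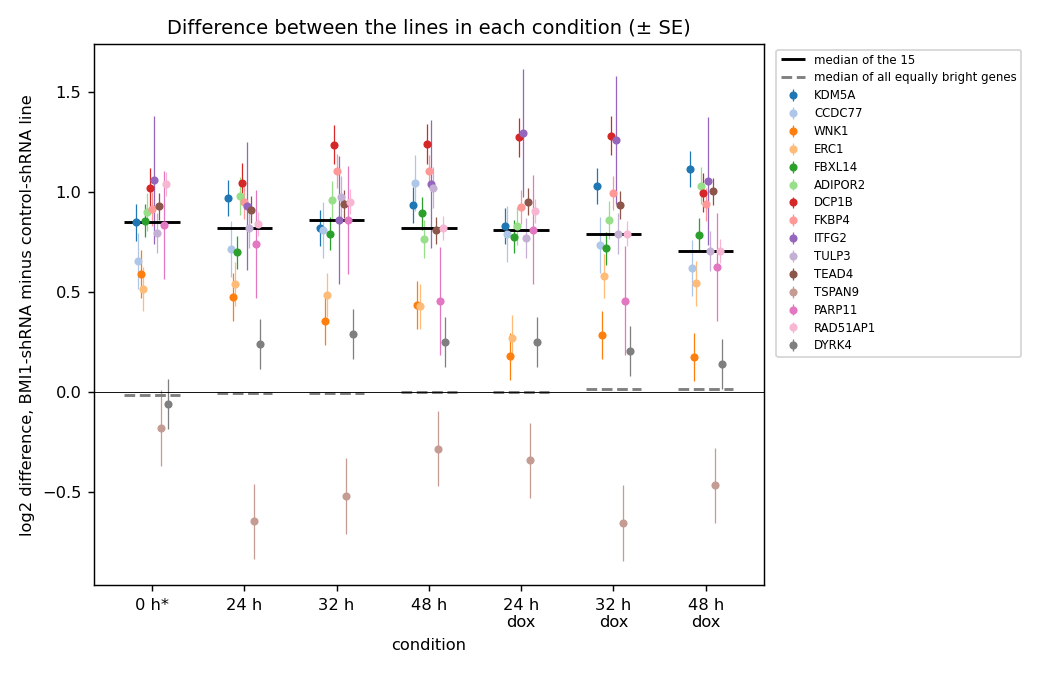
Log2 difference between the BMI1-shRNA and control-shRNA lines (± SE) for the 15 brighter genes at 0, 24, 32 and 48 h without doxycycline and at 24, 32 and 48 h with it (the asterisk marks the 0 h arrays with conflicting labels). Solid bars are the median of the 15 genes, 0.71 to 0.86, and dashed bars that of all equally bright genes, near 0.

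Whether the offset changed with doxycycline was tested directly. The list did not use that difference, but the undosed arrays on which the list was drawn up enter it. They also enter the doxycycline effect within each line, so these tests are not independent of the selection. The effect of doxycycline was taken in each line, and for the BMI1-shRNA minus the control-shRNA value limma called 0 of the 26 genes at an adjusted p under 0.05, where it called 3.77% of all genes. At an unadjusted p under 0.05, which 13.5% of all genes passed, there were 3, all lower. They were WNK1 at -0.21 ± 0.10 (SE), TULP3 at -0.18 ± 0.08 (SE) and B4GALNT3, a glycosyltransferase, at -0.79 ± 0.37 (SE), with limma adjusted p of 0.328, 0.308 and 0.332. B4GALNT3 reached the array median on only 3 of the 42 arrays, the minimum of the filter. These were undosed BMI1-shRNA arrays at 24 h and a dosed control-shRNA array at 48 h. High values there also make its estimate negative, so nothing is read from it. For the brighter genes the estimates ran from -0.21 to 0.26, and the 95% interval included 0 for 13 of the 15. The intervals of the most precise genes were narrow, -0.17 to 0.03 for RAD51AP1 and -0.04 to 0.19 for TEAD4, and that of ITFG2 was wide, -0.27 to 0.78. Probe sets that were not their gene's brightest were outside this test. The second of TULP3 gave -0.36 ± 0.12 (SE), and ITFG2 had others at 0.52 ± 0.21 (SE) and 0.46 ± 0.20 (SE).

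Within the BMI1-shRNA line, BMI1 was lower with doxycycline, and 1 gene of distal 12p passed the test. BMI1 read 927 ± 154, 977 ± 62.5 and 1021 ± 125 (SD, n = 3 each) at 24, 32 and 48 h without doxycycline. It read 207 ± 34.1, 167 ± 17.3 and 159 ± 25.6 (SD, n = 3 each) with it. Of the 26 genes tested, limma called WNK1 alone, against 8.3% of all genes.

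WNK1 read 527.6, 543.1 and 587.1 at 24 h without doxycycline in the BMI1-shRNA line, 512.5, 593.6 and 517.2 at 32 h, and 437.9, 624.7 and 558.8 at 48 h. With doxycycline it read 413.6, 388.4 and 459.2 at 24 h, 461.3, 478.2 and 432.9 at 32 h, and 427.9, 409.0 and 390.1 at 48 h. At each of the 3 times all dosed arrays lay below all undosed ones. WNK1 fell by 0.34 ± 0.07 (SE) on the log2 scale, with a limma adjusted p of 0.000691. In the control-shRNA line the same step gave -0.13 ± 0.07 (SE), and the difference between the lines in this step was not called, as given above. The 2 other WNK1 probe sets on all 42 arrays gave -0.17 ± 0.05 (SE) and -0.15 ± 0.11 (SE). With the mean of its retained probe sets, dim ones included, WNK1 gave -0.06 and a limma adjusted p of 0.761.

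Another 3 genes passed an unadjusted p under 0.05 in this step, all lower, making 4 of the 26 against 19% of all genes. TULP3 gave -0.16 ± 0.06 (SE), with a limma adjusted p of 0.098. Its undosed arrays in the BMI1-shRNA line read 213.4 to 258.3 and its dosed ones 191.3 to 231.9, which overlap. Without replicate 2 of the undosed 48 h arrays TULP3 passed as well, at -0.19 ± 0.06 (SE) and a limma adjusted p of 0.0489, and the count rose from 1 to 2. Its second probe set gave -0.27 ± 0.09 (SE). With the mean of its probe sets TULP3 gave -0.21 ± 0.06 (SE), with a limma adjusted p of 0.0123, and was then called in place of WNK1. The others were dim, SLC6A13, a GABA transporter, at -0.40 ± 0.20 (SE) and GALNT8, which starts O-linked glycans, at -0.43 ± 0.20 (SE), with limma adjusted p of 0.263 and 0.212. The median effect was -0.01 over the 15 brighter genes and 0.02 over all equally bright genes.

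In the control-shRNA line no effect of doxycycline on these genes passed the test. Limma called 0 of the 26, against 0.129% of all genes, and 0 of the 26 passed an unadjusted p under 0.05, against 6.01%. The estimates ran from -0.38 to 0.36 over all 26 and from -0.14 to 0.14 over the 15 brighter genes, with a median of 0.02 for the latter.

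FKBP4 fell with time in culture without doxycycline, and no change of the offset between the lines over time passed the test. Between 24 and 48 h limma called 1 of the 26 genes in the control-shRNA line, against 0.843% of all genes, and 0 in the BMI1-shRNA line, against 0.952%. At an unadjusted p under 0.05 the counts were 4, against 12.2%, and 5, against 13.4%. The difference of these changes between the lines was called for 0 of the 26, and for 0 genes of the whole array (0%), with 0 of the 26 and 1204 of all genes (8.19%) at an unadjusted p under 0.05. For the brighter genes that difference ran from -0.29 for PARP11 to 0.36 for TSPAN9.

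FKBP4 read 1186.1, 1087.9 and 1181.5 at 24 h in the control-shRNA line and 1067.2, 745.7 and 894.8 at 48 h. The 48 h arrays lay below all 3 of 24 h, and FKBP4 fell by 0.36 ± 0.08 (SE) on the log2 scale, with a limma adjusted p of 0.0249. At 0 h it read 1265.2, 1275.9 and 1211.8, above both. From 0 to 48 h it fell by 0.48 ± 0.08 (SE), with a limma adjusted p of 0.000186. In the undosed BMI1-shRNA line FKBP4 read 2213.7, 2279.2 and 2195.0 at 24 h and 1722.5, 2031.6 and 2034.5 at 48 h. These groups did not overlap, but the change of -0.21 ± 0.08 (SE) was not called, with a limma adjusted p of 0.231.

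The call from 24 to 48 h rested on few arrays. It was lost without replicate 1 or 3 of the 24 h arrays, at -0.34 and -0.35 with limma adjusted p of 0.122 and 0.109 for FKBP4. It was also lost without replicate 2 or 3 of the 48 h arrays, at -0.23 and -0.37 with limma adjusted p of 0.183 and 0.118. The fall of FKBP4 from 0 h was called whichever array was left out, at -0.61 to -0.35. The second FKBP4 probe set gave -0.18 ± 0.12 (SE) from 24 h and -0.13 ± 0.12 (SE) from 0 h. With the mean of its probe sets FKBP4 was called in neither, at -0.16 and -0.09 with limma adjusted p of 0.48 and 0.657.

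**Figure D3:**
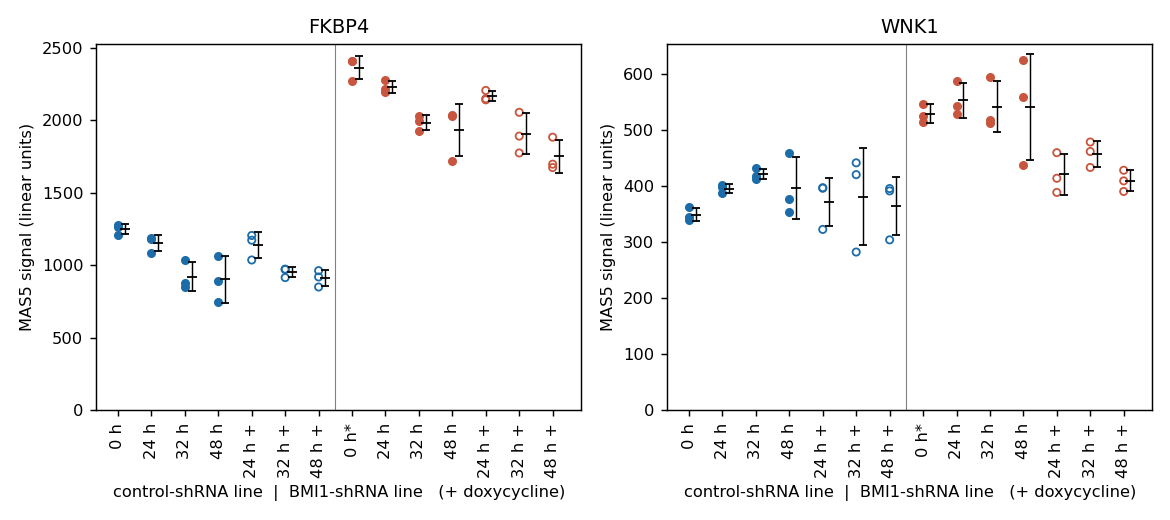
Signal of FKBP4 (left) and WNK1 (right) on each array, in linear MAS5 units, by time for the control-shRNA line (blue) and the BMI1-shRNA line (red), without (filled) and with (open, marked +) doxycycline; black bars are mean ± SD of 3 arrays and the asterisk marks the 0 h arrays with conflicting labels. FKBP4 is 2.06 times as high in the BMI1-shRNA line without doxycycline and falls with time in the control-shRNA line, and WNK1 is lower with doxycycline in the BMI1-shRNA line.

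From 0 to 48 h in the control-shRNA line limma called 2 of the 26 genes, FKBP4 and PRMT8, against 5.05% of all genes, and 8 passed an unadjusted p under 0.05, against 17.8%. PRMT8, an arginine methyltransferase known mainly from brain, read 2.1, 1.2 and 10.5 at 0 h and 28.4, 20 and 18.8 at 48 h. The groups did not overlap, and the limma adjusted p for PRMT8 was 0.0308. The fitted log2 difference was 1.57 ± 0.45 (SE), but all 0 h signals lay below the medians of their arrays. So did the 48 h signals of 20 and 18.8, against medians of 22.5 and 20.3, while 28.4 lay above its own, 17.4. The size therefore depends on the pseudocount and ran from 0.83 to 2.43 over the alternatives. PRMT8 was at or above the array median on 9 of the 42 arrays, and its other probe set gave 0.06 ± 0.45 (SE). Without replicate 1 or 2 of the 0 h arrays the call on PRMT8 was lost, at 1.42 and 1.33 with limma adjusted p of 0.12 and 0.151. It was also lost without replicate 1, 2 or 3 of the 48 h arrays, at 1.43, 1.63 and 1.67 with limma adjusted p of 0.0987, 0.0688 and 0.0593.

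Most of the tested genes lying between those of the list were also higher in the BMI1-shRNA line. A total of 12 genes that passed the filter lay between the most telomeric and the most centromeric gene. They were LOC105369595, NINJ2-AS1, FOXM1, RHNO1, CRACR2A, CCND2, TIGAR, FERRY3, NDUFA9, GAU1, LOC100507560 and LINC02443. Their undosed difference had a median of 0.45, with 10 above 0, where the median over all genes tested was 0.01. The 7 that read at or above the array median on all 42 arrays were all above 0, with a median of 0.77, against the 48.9% of equally bright genes. CCND2, the D-type cyclin of many plasma cell tumours, read 2926 to 3476 in the control-shRNA line and 6489 to 7556 in the BMI1-shRNA line, a difference of 1.12 ± 0.04 (SE).

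The other 6 of these bright neighbours had various roles. TIGAR, a regulator of sugar metabolism, gave 1.04 ± 0.04 (SE) and FERRY3, a subunit of an endosomal complex that binds mRNA, gave 0.81 ± 0.04 (SE). NDUFA9, a subunit of respiratory complex I, gave 0.77 ± 0.06 (SE), and RHNO1, a protein of the DNA damage checkpoint, gave 0.71 ± 0.05 (SE). FOXM1, a transcription factor of dividing cells, gave 0.68 ± 0.05 (SE). CRACR2A, a regulator of store-operated calcium entry, gave 0.16 ± 0.07 (SE) and was the only gene of the 7 whose lines overlapped. Among equally bright genes 11.1% lay apart with the BMI1-shRNA line higher.

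The offset went on past the last gene of the list. The next 34 tested genes towards the centromere, from CD9 to PTPN6, had a median difference of 0.57 with 27 above 0. Of these, 25 were bright on all 42 arrays, with a median of 0.74, and 23 of the 25 were above 0. In consecutive windows of 20 tested genes from the telomere, the median was 0.58, 0.47, 0.63, 0.48, 0.31, 0.45 and 0.20 in windows 1 to 7, which run from IQSEC3 to PLEKHA5. It was -0.03 in window 8, which starts at AEBP2, and -0.03 over the 632 tested genes beyond window 7. Of the 140 genes of windows 1 to 7, 119 were above 0. Genes on the list fill 26 places in windows 1 and 2 only, and windows 3 to 7 hold none.

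**Figure D4:**
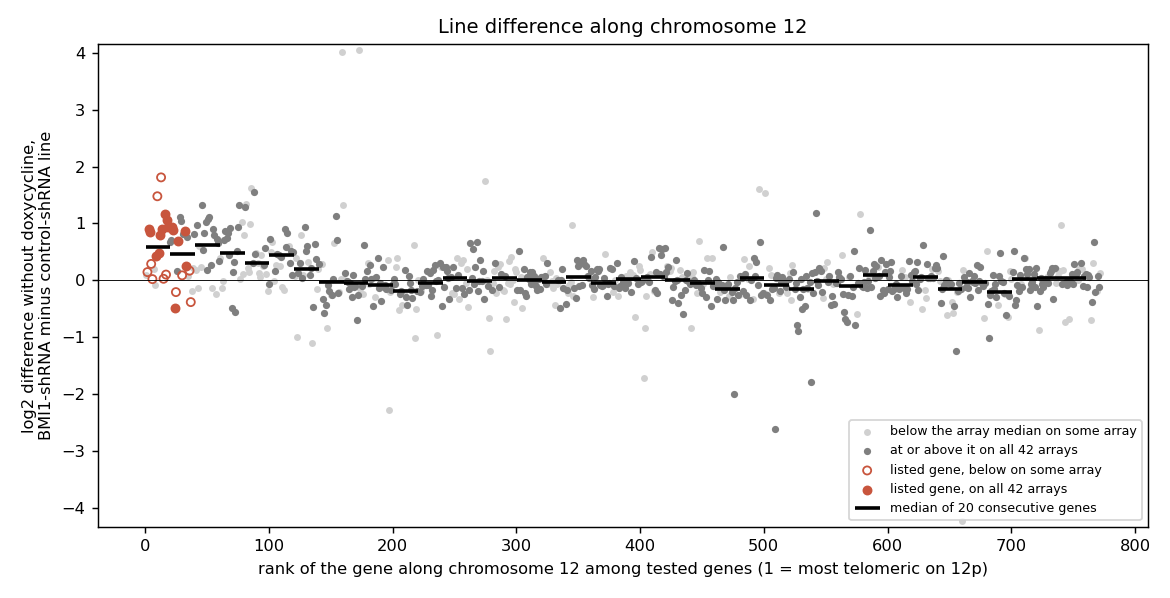
Log2 difference between the BMI1-shRNA and control-shRNA lines without doxycycline for each tested gene of chromosome 12, by rank from the telomere of 12p; red marks genes of the list and black bars the median of 20 consecutive genes. The medians stand at 0.20 to 0.63 in the first 7 windows. From the eighth on the median over single genes is -0.03, and window medians go down to -0.20.

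With doxycycline the first windows kept their level, at 0.59 and 0.49 for windows 1 and 2, and at 0 h they stood at 0.62 and 0.67. Over the whole genome 722 such windows had medians from -0.47 to 0.63, so the highest one, window 3 of chromosome 12, borders the stretch of the list. A median of 0.3 or more was found in 37 windows. Of these 14 were on chromosome 8, 11 on chromosome 20, 6 on chromosome 12 and 3 each on chromosomes 11 and 18. A median of -0.3 or less was found in 14. DNA copy number was not measured in these samples, and its part in the offset was not tested.

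**Figure D5:**
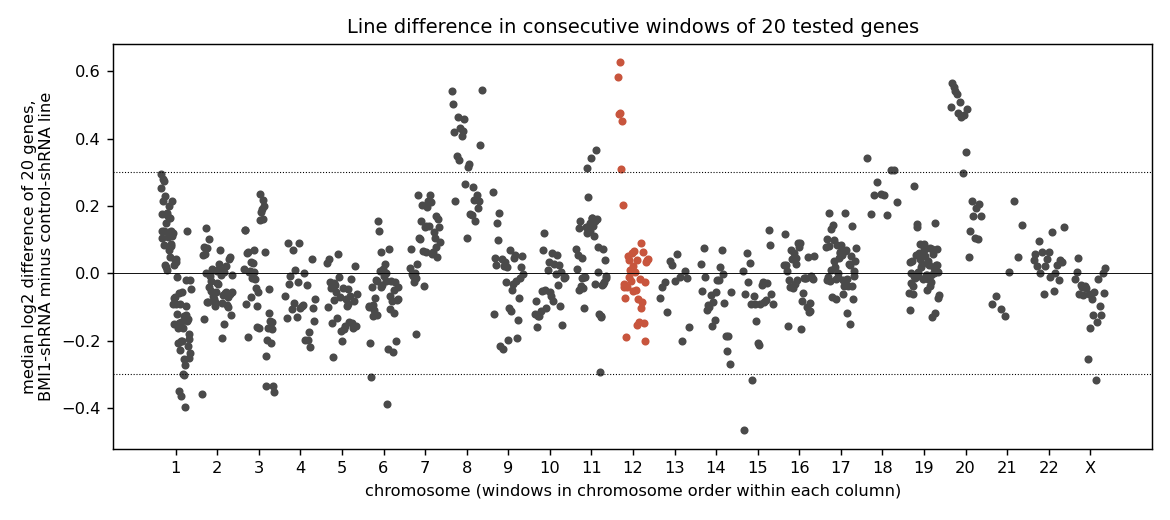
Median log2 difference between the BMI1-shRNA and control-shRNA lines without doxycycline in 722 consecutive windows of 20 tested genes, in order along each chromosome, with dotted lines at 0.3 and -0.3. Chromosome 12 (red) starts high at its telomere and then stays below 0.3, down to -0.20, and chromosomes 8, 20, 11 and 18 hold the other windows at 0.3 or more.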

How the data were processed

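Total RNA of 42 samples was measured, 1 Affymetrix U133 Plus 2 array each. The deposited unit is intensity, a linear signal per probe set from MAS5 (version not given), per the submitters' processing notes. With 2% trimmed off both ends, array means were 150.02 to 150.03, so the deposited signals share a common scale. Of 54675 probe sets, 62 array controls were left out and 41091 had 1 gene symbol, updated through Entrez identifiers to RefSeq. Probe sets with several symbols (1801) were not used, except for BMI1, whose probe set is shared with a readthrough transcript.

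Each gene was its brightest probe set by mean signal. Genes at or above the array median on at least 3 arrays (14704) were tested on log2(signal + 5.4), 5.4 being the 25th percentile of all values. Means of 14 groups were fitted with limma 3.58.1 in R 4.3.3 (eBayes with intensity trend, 28 residual and 8.62 prior degrees of freedom), two-sided, with Benjamini-Hochberg adjustment over all 14704 genes and a threshold of 0.05. The fit was tested on simulated data. Doxycycline effects are means over 24, 32 and 48 h. Windows follow RefSeq gene order, and 14677 tested genes were placed.

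The members and lists were chosen with earlier results of these data known. Every member is eligible for naming. Members at or above the median on all 42 arrays or called in a tested comparison are given in full, and of the others the 4 largest line differences are named. Array numbers did not pair arrays: deviations from group means correlated at a mean r of 0.002 across genes for equal numbers and -0.001 for unequal ones. Alternatives were other pseudocounts, filters, quantile normalization, mean probe sets, no trend, fewer arrays, and the replicate block.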

Additional observations from a re-analysis of the deposited data

How the results depend on the processing

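The median line difference over the listed genes, 0.42, was 0.23 with the median of all values as pseudocount, 0.27 with probe sets averaged, 0.88 with the filter at the 75th percentile and 0.58 over members that passed the filter only. Leaving out each array in turn gave 0.37 to 0.46. The count of 2 genes from 0 to 48 h was 1 with that filter, with probe sets averaged, or with only the groups of the comparison, and 1 to 2 leaving out arrays. The count of 1 gene from 24 to 48 h in the control-shRNA line was 0 with the mean of probe sets, no intensity trend, or only the groups of the comparison, and 0 to 1 leaving out arrays. The doxycycline count in the BMI1-shRNA line, 1, was 1 to 2 leaving out arrays. The counts of 0 were 0 in each alternative run. With the replicate number as a block, these counts were 1, 0, 0, 1, 0, 0 and 2, as without it, and the median stayed at 0.42. The line differences of 7 of the 15 brighter genes moved by more than their spread in some alternative. No direction was reversed among these results or the 15 brighter genes' line differences. Over all genes, calls with only the groups of the comparison were 10 in place of 124 (24 to 48 h, control-shRNA line), 33 in place of 140 (BMI1-shRNA line) and 226 in place of 742 (0 to 48 h), and the filter at the 75th percentile gave 252 in place of 140. For the difference of time changes, called for 0 genes, they gave 2 and 4, and the mean of probe sets 6. The cause of these shifts was not tested. Signals near background limit the 18 dimmer genes.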

Other observations

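GAPDH, often used as a reference gene, lies in window 3 of chromosome 12, beyond the last listed gene, and was looked up after its values were seen. Undosed signals were 9784 ± 1266 for the control-shRNA arrays and 11089 ± 1233 for the BMI1-shRNA arrays (SD over 9 arrays each), a log2 difference of 0.18 ± 0.08 (SE) where the median of its window was 0.63.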
